A study of Danio rerio with 6 samples.

Results

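The 42 genes described here encode the machinery that carries a cell through mitosis, and transcripts of 41 of them were higher in zebrafish larvae mutant for pdcd7 than in their wild-type siblings. Among all genes tested, 34.5% were called higher in the mutants. The members are cyclins, mitotic kinases, kinetochore and checkpoint proteins, spindle motors, cytokinesis proteins and chromosome-shaping proteins. They were chosen by name with earlier results of these data known, so shares set beside those of all genes are description only. Each name was looked up in the gene table of the zebrafish genome build GRCz11. All 42 were found among the 32520 genes counted, and all 42 passed the filter on low counts that left 24248 genes for testing.

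A dividing cell is driven by cyclin-dependent kinases (CDKs), which are switched on by cyclins and switched off when the cyclins are destroyed. Polo and Aurora kinases, partly under CDK control, build the spindle and prepare chromosomes. The kinetochore ties each chromosome to spindle microtubules, and the spindle checkpoint holds back the anaphase-promoting complex (APC/C), a ubiquitin ligase, until every chromosome is attached. In a larva at this age, dividing cells are known from the edge of the retina, the brain ventricles, the gut and the blood-forming tissue, among others.

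The mutant group held 3 libraries of whole larvae from a line labelled pdcd7/cx20, allele pd1215, taken 5 days after fertilisation. The other group held 3 libraries of wild-type siblings of the same age, and all 6 were labelled batch 1. PDCD7 belongs to the U11 snRNP, the part of the minor spliceosome that recognises a rare class of introns. The labels state 40 larvae and 3 replicates, do not say whether each replicate came from 40, and do not say whether replicates came from separate clutches, so each p-value reflects the spread of these libraries, and that spread may be technical. What cx20 stands for is not given either, so a difference cannot be assigned to pdcd7 alone.

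Libraries held 75993728 to 87110177 counts in mutants and 75122088 to 80871977 in siblings. The pdcd7 transcript itself measured 21.8, 19.6 and 20.5 CPM (counts scaled to library size) in mutant libraries and 14.8, 15 and 15.3 CPM in sibling libraries, so it was higher in mutants, and gene counts do not show the lesion. Of all tested genes, 34.5% were called higher and 34.1% lower in mutants at an adjusted p under 0.05 in edgeR. The median log2 change over all tested genes was 0.01. With that many genes called, a call alone says little, so the size of each change is given beside it. Genes read from the same libraries are not repeats of one another.

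As a group, the members were raised by moderate amounts. Of the 42, 41 rose and 0 fell (edgeR, adjusted p under 0.05 over all tested genes), which is 97.6% against the 34.5% of all tested genes called higher. The median log2 change of the members was 0.56, a 1.47-fold difference, and single members ranged from 1.12-fold to 2.03-fold. All 41 were also higher in every mutant library than in any sibling library, a pattern that 36.4% of tested genes showed in that direction. Summed over the members, mutant libraries held 1380, 1340 and 1330 CPM and sibling libraries 903, 935 and 908 CPM. CPM is relative to a library's size, here scaled by a TMM factor of 1.022 to 1.032 in mutants and 0.9737 to 0.9775 in siblings. It is not an amount per larva. In whole larvae, a larger share of dividing cells and more of these transcripts per cell cannot be told apart.

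**Figure D1:**
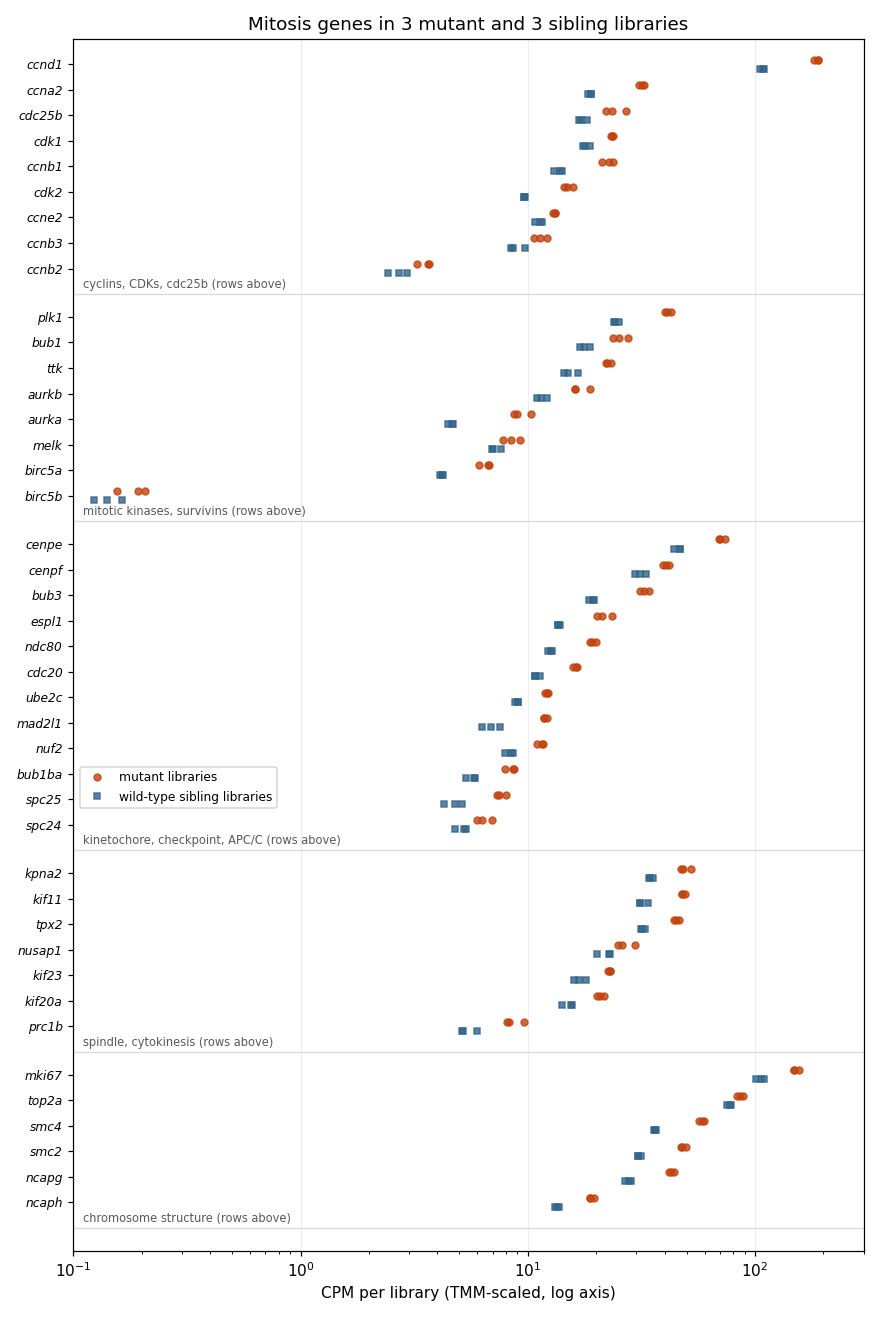
Each row is 1 member gene. The horizontal log axis gives its CPM in every library, with circles for the 3 mutant libraries and squares for the 3 wild-type sibling libraries. Circles lie to the right of all squares in every row except that of birc5b, which is near 0.2 CPM.

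A stricter test asked which members changed by more than 1.5-fold. It called 8 members higher (19.0%) and 0 lower, where it called 5.78% of all tested genes higher and 7.37% lower. The 8 were aurka, ccnd1, ccna2, ccnb1, plk1, bub3, mad2l1 and smc4. With libraries scaled by their totals alone, 15 members passed this test. That scaling moved the log2 change of each member up by 0.07 to 0.08. The share of all tested genes passing under it was not counted, so the 15 cannot be set against 5.78%.

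Cyclins and their kinases set the order of the cycle. All 9 members of this class rose (against 34.5% of all tested genes), with a median log2 change of 0.47. Cyclin D1, ccnd1, which responds to growth signals in G1, was the most abundant member by CPM. It measured 181, 189 and 189 CPM in mutant libraries and 105, 110 and 108 CPM in sibling libraries. The groups lay far apart, with a log2 change of 0.79 ± 0.03 SE (adjusted p = 5.94e-10 in edgeR). Cyclin A2, ccna2, works with CDKs in S phase and at mitotic entry. It stood at 32.4, 31.7 and 30.9 CPM in mutants and 19.0, 18.4 and 18.9 CPM in siblings (log2 0.76 ± 0.03 SE, adjusted p = 2.04e-09 in edgeR).

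The mitotic B cyclins did not rise by equal amounts. Cyclin B1, ccnb1, the main partner of CDK1, gave 23.7, 22.8 and 21.1 CPM in mutants and 13.8, 14.2 and 13.0 CPM in siblings (log2 0.72 ± 0.05 SE). Cyclin B2, ccnb2, gave 3.62, 3.66 and 3.25 CPM in mutants and 2.94, 2.72 and 2.43 CPM in siblings (log2 0.38 ± 0.09 SE, adjusted p = 0.00307 in edgeR). Cyclin B3, ccnb3, which acts in anaphase in flies, gave 11.3, 12.1 and 10.6 CPM in mutants and 8.42, 8.60 and 9.75 CPM in siblings (log2 0.34 ± 0.07 SE). All 3 B cyclins were higher in each mutant library than in any sibling library, with ccnb1 the most so. That pattern was shown by 36.4% of all tested genes.

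Cyclin E2, ccne2, which acts with CDK2 at the start of S phase, had the lowest change of this class. It measured 13.2, 13.1 and 12.9 CPM in mutants and 11.5, 11.3 and 10.8 CPM in siblings, a log2 change of 0.22 ± 0.05 SE (adjusted p = 0.000949 in edgeR). Its groups did not overlap although they lay close. Among the catalytic subunits, cdk1, the kinase of mitotic entry, averaged 23.5 ± 0.199 CPM in mutants and 18 ± 0.601 CPM in siblings (SD, n = 3 each; log2 0.38 ± 0.04 SE). The S-phase kinase cdk2 averaged 15 ± 0.731 CPM in mutants and 9.63 ± 0.0568 CPM in siblings (log2 0.64 ± 0.05 SE). The phosphatase gene cdc25b, whose product removes the inhibitory phosphates from CDKs, gave 22.1, 26.9 and 23.5 CPM in mutants and 16.8, 18.3 and 17.2 CPM in siblings (log2 0.47 ± 0.06 SE). Its second mutant library stood above the other two.

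Among the mitotic kinases and survivins 7 of 8 rose (87.5%, against 34.5% of all tested genes), with a median log2 change of 0.56. Aurora A, aurka, which matures centrosomes and builds spindle poles, had the highest change of all 42 members. It measured 10.3, 8.65 and 8.99 CPM in mutants and 4.68, 4.62 and 4.45 CPM in siblings, a 2.03-fold difference (log2 1.02 ± 0.08 SE, adjusted p = 1.42e-07 in edgeR). Aurora B, aurkb, the kinase of the chromosomal passenger complex, gave 18.7, 16.2 and 16.2 CPM in mutants and 12.2, 11 and 11.4 CPM in siblings (log2 0.56 ± 0.06 SE). For each Aurora kinase the first mutant library was the highest of the 6. Polo-like kinase 1, plk1, which acts at mitotic entry, centrosomes and kinetochores, was the most abundant of this class by CPM. It stood at 42.7, 40.8 and 40.3 CPM in mutants and 24.3, 25.2 and 24.0 CPM in siblings (log2 0.75 ± 0.04 SE, adjusted p = 2.4e-09 in edgeR).

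The checkpoint kinases bub1 and ttk (also known as Mps1) signal from unattached kinetochores. For bub1, mutant libraries held 27.6, 25.2 and 23.8 CPM and sibling libraries 16.9, 18.8 and 17.6 CPM (log2 0.52 ± 0.06 SE). For ttk they held 23.3, 22.1 and 22.2 CPM in mutants and 14.4, 16.6 and 15 CPM in siblings (log2 0.55 ± 0.05 SE). Neither gene's groups overlapped. The kinase gene melk, a marker of proliferating cells, gave 9.23, 8.43 and 7.77 CPM in mutants and 6.92, 7.59 and 7.02 CPM in siblings. Its log2 change was 0.24 ± 0.07 SE (adjusted p = 0.011 in edgeR). Without the first mutant library the change was 0.17 and no longer called (adjusted p = 0.0531 in edgeR).

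The 2 survivin genes encode the passenger subunit that brings Aurora B to centromeres, and they were expressed at very different levels. In birc5a, listed as BIRC5, the level was 6.77, 6.65 and 6.07 CPM in mutants and 4.09, 4.22 and 4.18 CPM in siblings (log2 0.64 ± 0.07 SE, adjusted p = 4.35e-06 in edgeR). The other copy, birc5b, was scarce, at 0.193, 0.207 and 0.156 CPM in mutants and 0.123, 0.141 and 0.164 CPM in siblings. It was the only member without a call (log2 0.36, 95% interval -0.50 to 1.22, adjusted p = 0.319 in edgeR), and its groups overlapped. Its levels stood not far above what a count of 0 allows, 3 counts or 0.0334 to 0.0410 CPM, and a change as large as that of birc5a lies within its interval, so no change was detectable at this depth.

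**Figure D2:**
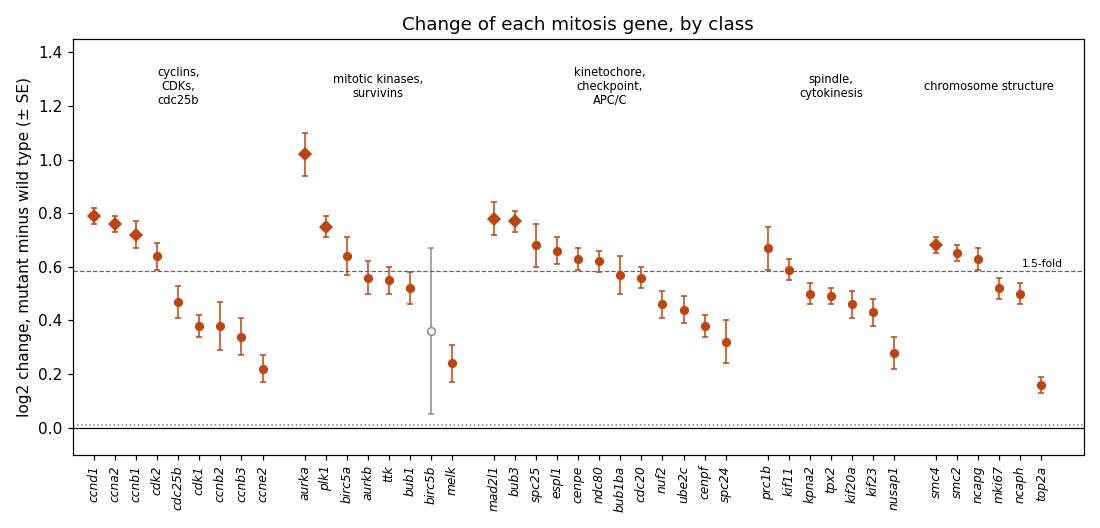
Points give the log2 change, mutant minus wild type, of each member, sorted within its class, and bars give the SE from the edgeR fit. Diamonds mark the 8 members that passed the test against a 1.5-fold change (dashed line), the open circle is birc5b, and the dotted line is the median of all tested genes at 0.01.

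The members of the kinetochore, checkpoint and APC/C class rose in 12 of 12 cases (against 34.5% of all tested genes). Their median log2 change was 0.59. Of the APC/C, this class holds the activator gene cdc20 and the enzyme gene ube2c, and no subunit gene. The checkpoint proteins mad2l1 and bub3, which help to hold back the APC/C, changed most in this class. For mad2l1, the mutant libraries held 12.1, 11.8 and 11.8 CPM and the sibling libraries 6.89, 7.51 and 6.30 CPM (log2 0.78 ± 0.06 SE, adjusted p = 3.4e-07 in edgeR). For bub3, they held 34.2, 31.1 and 32.3 CPM in mutants and 19.3, 18.6 and 19.5 CPM in siblings (log2 0.77 ± 0.04 SE, adjusted p = 8.18e-09 in edgeR). The pseudokinase gene bub1ba, of the same checkpoint complex, averaged 8.41 ± 0.427 CPM in mutants and 5.65 ± 0.269 CPM in siblings (SD, n = 3 each; log2 0.57 ± 0.07 SE).

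The 4 subunits of the NDC80 complex, the rod that grips the microtubule end, all rose (against 34.5% of all tested genes) but not equally. Ndc80 itself, ndc80, gave 20.0, 19.2 and 18.8 CPM in mutants and 12.3, 12.8 and 12.7 CPM in siblings (log2 0.62 ± 0.04 SE). Its partner nuf2 gave 11.5, 11 and 11.7 CPM in mutants and 7.96, 8.45 and 8.60 CPM in siblings (log2 0.46 ± 0.05 SE). In the part of the rod that faces the chromosome, spc25 changed by log2 0.68 ± 0.08 SE and spc24 by 0.32 ± 0.08 SE. Their levels were 8.0, 7.44 and 7.35 CPM (spc25) and 6.95, 6.30 and 5.95 CPM (spc24) in mutants. In siblings they had 5.15, 4.79 and 4.29 CPM (spc25) and 5.21, 4.76 and 5.36 CPM (spc24).

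The kinetochore motor gene cenpe, whose product carries chromosomes to the spindle equator, was the most abundant gene of the class by CPM, at 73.6, 69.2 and 70.1 CPM in mutants and 43.9, 46.8 and 46.7 CPM in siblings (log2 0.63 ± 0.04 SE, adjusted p = 1.47e-08 in edgeR). The large outer kinetochore protein gene cenpf gave 40.6, 39.3 and 41.9 CPM in mutants and 31.0, 33.2 and 29.6 CPM in siblings, a lower log2 change of 0.38 ± 0.04 SE. Of the genes that end the checkpoint, cdc20, the activator of the APC/C, averaged 16.2 ± 0.352 CPM in mutants and 11 ± 0.274 CPM in siblings (SD, n = 3 each; log2 0.56 ± 0.04 SE). The ubiquitin-conjugating enzyme gene of the APC/C, ube2c, averaged 12.1 ± 0.216 CPM in mutants and 8.96 ± 0.157 CPM in siblings (log2 0.44 ± 0.05 SE). The separase gene espl1, whose protease cuts cohesin at anaphase, gave 23.4, 21.1 and 20.1 CPM in mutants and 13.8, 13.6 and 13.6 CPM in siblings (log2 0.66 ± 0.05 SE). So, among the members, genes that hold anaphase back and genes that start it were raised together in these libraries. Outside the members, the securin gene pttg1 was not called (log2 0.19 ± 0.10 SE, adjusted p = 0.104 in edgeR), though its groups did not overlap.

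Spindle and cytokinesis genes rose in 7 of 7 cases (against 34.5% of all tested genes). Their median log2 change was 0.49, with no member past the test against 1.5-fold. The kinesin kif11 (Eg5), which pushes spindle poles apart, gave 49.0, 47.5 and 47.9 CPM in mutants and 31.1, 33.8 and 31.2 CPM in siblings (log2 0.59 ± 0.04 SE, adjusted p = 3.38e-08 in edgeR). Its groups lay well apart. The central spindle kinesins followed, with kif23 at 23.1, 22.6 and 23.1 CPM in mutants and 16.0, 16.8 and 18.1 CPM in siblings (log2 0.43 ± 0.05 SE). The level of kif20a was 21.6, 20.1 and 20.7 CPM in mutants and 14.1, 15.6 and 15.5 CPM in siblings (log2 0.46 ± 0.05 SE). The microtubule bundler of the midzone, prc1b, showed the highest change of the class, at 9.58, 8.25 and 8.12 CPM in mutants and 5.18, 5.12 and 5.96 CPM in siblings (log2 0.67 ± 0.08 SE). The gene table gives the name PRC1 to 2 gene IDs, and the one on chromosome 7 was taken as prc1b.

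The spindle assembly factor tpx2, which activates Aurora A, stood at 44.7, 46.1 and 44.1 CPM in mutants and 31.5, 32.7 and 31.8 CPM in siblings (log2 0.49 ± 0.03 SE, adjusted p = 4.96e-08 in edgeR). The importin gene kpna2, whose protein family keeps such factors inactive away from chromosomes, gave 52.2, 47.3 and 48.0 CPM in mutants and 34.4, 35.5 and 34.0 CPM in siblings (log2 0.50 ± 0.04 SE). The spindle-associated gene nusap1 was the least changed of the class, at 29.5, 26.0 and 24.9 CPM in mutants and 20.2, 22.7 and 23.0 CPM in siblings (log2 0.28 ± 0.06 SE, adjusted p = 0.00176 in edgeR). The gap between its groups was small, and the first mutant library was again the highest.

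Genes that shape mitotic chromosomes rose in 6 of 6 cases (against 34.5% of all tested genes), with a median log2 change of 0.57. The 4 condensin genes, whose ring complex compacts chromosomes, all rose, from log2 0.50 for ncaph to 0.68 for smc4. Condensin's ATPase subunit genes were smc4, at 59.7, 58.2 and 56.5 CPM in mutants and 36.8, 35.8 and 36.1 CPM in siblings (log2 0.68 ± 0.03 SE, adjusted p = 2.51e-09 in edgeR), and smc2, at log2 0.65 ± 0.03 SE. The condensin I subunit gene ncapg changed by log2 0.63 ± 0.04 SE and ncaph by 0.50 ± 0.04 SE. The proliferation marker gene mki67, whose protein coats mitotic chromosomes, gave 156, 149 and 149 CPM in mutants and 106, 110 and 101 CPM in siblings (log2 0.52 ± 0.04 SE).

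Topoisomerase II alpha, top2a, which untangles sister chromatids and is also used as a proliferation marker, changed least of all 42 members. It measured 88.7, 83.3 and 85.9 CPM in mutants and 75.4, 78.1 and 77.6 CPM in siblings, a 1.12-fold difference (log2 0.16 ± 0.03 SE, adjusted p = 0.00095 in edgeR). Its groups did not overlap. The genes ndc80 (chromosome 12, 10353333 to 10365969) and mki67 (chromosome 12, 10366617 to 10381282) lie on the same strand with 647 bases between them, and top2a (chromosome 12, 10706772 to 10740236) lies near them in build GRCz11. Their log2 changes were 0.62, 0.52 and 0.16, so neighbours on the chromosome did not share 1 value.

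The classes differed little in their medians, which ran from 0.47 to 0.59, and each class spanned a wide range. Log2 changes ran from 0.22 to 0.79 in cyclins and CDKs, from 0.24 to 1.02 in kinases and survivins, and from 0.32 to 0.78 in kinetochore and checkpoint genes. They ran from 0.28 to 0.67 in spindle genes and from 0.16 to 0.68 in chromosome genes. Per kilobase of exon, ccnd1 had the highest level in mutants, at 28.1 CPM per kilobase in mutants and 16.3 in siblings, and kpna2 the highest in siblings, at 25.4 in mutants and 17.9 in siblings. The lowest level was that of birc5b, at 0.205 CPM per kilobase in mutants and 0.158 in siblings. Across the 42 members, Spearman's rho between the log2 change and the sibling CPM was 0.0821, a description of genes that share the same libraries.

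Ratios between genes within a library do not depend on how libraries are scaled, and for several pairs of related genes the ratio differed between the groups. Such differences restate the unequal log2 changes given above. Of 24248 single genes, 8823 were higher and 8669 lower in mutants without overlap of the groups. How many gene pairs at large separate in this way was not counted, so a lack of overlap in a ratio is description only. The log2 ratio of ccne2 to ccna2 was -1.29, -1.27 and -1.26 in mutants and -0.72, -0.71 and -0.80 in siblings. The log2 ratio of aurkb to aurka was 0.86, 0.91 and 0.85 in mutants and 1.38, 1.25 and 1.36 in siblings. In both pairs the groups were well separated, the mutants having relatively more ccna2 and more aurka. For ccnb2 to ccnb1 the mean log2 ratio was -2.69 in mutants and -2.35 in siblings, and for ccnb3 to ccnb1 it was -0.99 in mutants and -0.62 in siblings, again without overlap.

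For cdk2 to cdk1 the mean log2 ratio was -0.65 in mutants and -0.91 in siblings, without overlap. The ratio of ccnd1, a G1 gene, to ccnb1, a mitotic gene, gave 2.93, 3.05 and 3.16 in mutants and 2.93, 2.95 and 3.06 in siblings, so these groups overlapped. Overlap was also seen for birc5b to birc5a and for prc1b to its paralogue prc1a. With 3 libraries against 3, an exact two-sided permutation test cannot give a p below 0.1, so these ratios are given as values without a test.

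**Figure D3:**
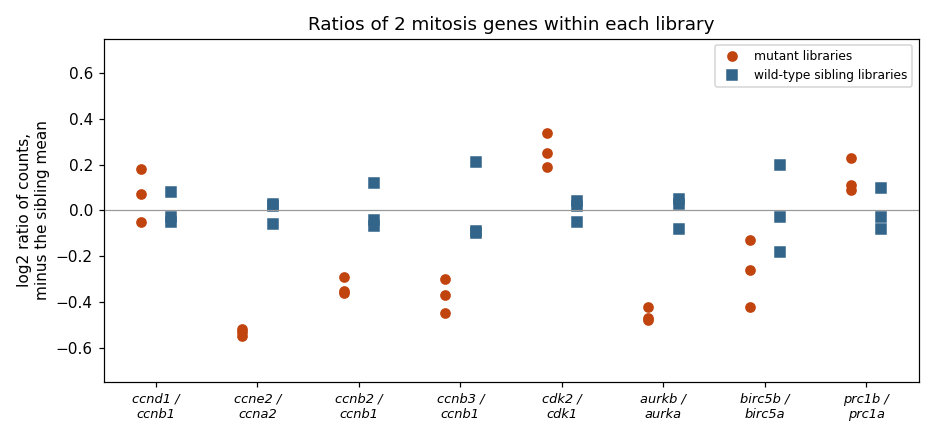
Each column is a pair of genes, and the vertical axis gives the log2 ratio of their counts in a library minus the mean ratio of the siblings. Circles are the 3 mutant libraries and squares the 3 sibling libraries, and circles lie clear of squares for ccne2/ccna2, ccnb2/ccnb1, ccnb3/ccnb1, cdk2/cdk1 and aurkb/aurka.

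Among the mutants, the first library was the highest for 31 of 42 members and the third was the lowest for 24. These differences were small, with a median coefficient of variation over members of 3.20% in mutants and 3.83% in siblings. Without the first mutant library the median log2 change of the members was still 0.52 and 40 were called, melk being lost. Members sat on 18 chromosomes. The 5 on chromosome 7, which also carries pdcd7, lay 9.24 to 43.9 Mb from it. Their log2 changes ran from 0.34 to 0.79 with a median of 0.67, and the other 37 had a median of 0.55. The lowest of the 5 was ccnb3, the closest to pdcd7.

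The rest of the mitotic machinery was read from lists of 197 further tested genes. Of these, 149 were called higher (75.6%, against 34.5% of all tested genes) and 20 lower (10.2%, against 34.1%), with a median log2 change of 0.43. The shares given for each list below stand beside the same shares of all tested genes. Kinetochore and checkpoint genes outside the members rose in 36 of 39 cases (92.3%) and fell in 1 (2.56%), with a median of 0.62. The genes with the smallest p were kntc1 and zwilch, of the complex that recruits dynein and checkpoint proteins, and mis12, which links the inner to the outer kinetochore. By edgeR kntc1 averaged 52.6 ± 2.87 CPM in mutants and 27.5 ± 0.949 CPM in siblings (SD, n = 3 each), and zwilch 8.66 ± 0.498 CPM in mutants and 3.60 ± 0.113 CPM in siblings. The gene mis12 was 2.00-fold higher, and clasp2, a microtubule plus-end protein with roles outside mitosis, fell by 0.18 on the log2 scale.

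Other spindle and cytokinesis genes rose in 43 of 55 cases (78.2%, against 34.5% of all tested genes) and fell in 4 (7.27%, against 34.1%). Those with the smallest p were rcc1, the exchange factor that loads Ran with GTP on chromatin, and rangap1b, which makes Ran hydrolyse it. The level of rcc1 was 28.6, 26.6 and 27.5 CPM in mutants and 8.91, 9.54 and 8.77 CPM in siblings (log2 1.6 ± 0.05 SE, adjusted p = 4.34e-11 in edgeR), a change above that of any of the 42 members. For rangap1b the fold was 2.03, and for the kinesin gene kif15 it was 1.63. Against them, citb, a citron kinase gene, stood at 15, 15.4 and 15.9 CPM in mutants and 33.0, 29.3 and 30.8 CPM in siblings (log2 -1.01 ± 0.05 SE). The more abundant paralogue cita averaged 70.5 CPM in mutants and 73.3 CPM in siblings and was not called (log2 -0.06 ± 0.03 SE). The centrosome genes tacc1 and cdk5rap2 fell by 0.32 and 0.15 on the log2 scale.

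Other cyclins and CDK regulators were more mixed, with 35 of 47 higher (74.5%, against 34.5% of all tested genes) and 7 lower (14.9%, against 34.1%). Their median was 0.32. The inhibitors did not go one way. The gene cdkn1a, encoding the CDK inhibitor p21, rose to 40.4, 41.3 and 38.1 CPM in mutants, against 19.0, 18.3 and 19.5 CPM in siblings (log2 1.08 ± 0.04 SE, adjusted p = 3.05e-10 in edgeR). The retinoblastoma gene rb1, which restrains entry into S phase, was 1.63-fold higher, and the G1 cyclin gene ccnd2a 1.78-fold higher. Of the genes related to rb1, rbl1 was called higher (log2 0.20) and rbl2 lower (log2 -0.08). The CDK inhibitor gene cdkn1bb fell by 0.24, the kinase gene plk2b by 0.20 and ensaa, a gene of the endosulfine family, which inhibits a phosphatase that opposes mitosis, by 0.79 on the log2 scale. The endosulfine family did not go one way. Its gene ensab was called lower (log2 -0.17), while arpp19b (log2 0.44) and arpp19a (log2 0.08, groups overlapping) were called higher. The paralogue of cdkn1bb, cdkn1ba, was called higher (log2 0.45 ± 0.04 SE). Of the other cdkn genes in the list, cdkn1ca, cdkn2a/b and cdkn2d were called higher, cdkn1cb was called lower, and cdkn2c and cdkn3 were not called.

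Chromosome structure genes outside the members rose in 18 of 19 cases (94.7%, against 34.5% of all tested genes) and fell in 0 (against 34.1%). Those with the smallest p were the B-type lamin gene lmnb1 (log2 0.83 ± 0.03 SE), the chromatin-bridging gene banf1 (0.65 ± 0.03 SE) and the condensin gene ncapd2 (0.60 ± 0.03 SE). The list of APC/C, securin and cohesin genes had the lowest median, 0.17, with 18 of 38 higher (47.4%, against 34.5% of all tested genes) and 8 lower (21.1%, against 34.1%). In it anapc1 and anapc2, subunits of the APC/C, rose by log2 0.74 ± 0.04 SE and 0.68 ± 0.05 SE, and cdca5 (sororin, which protects cohesin) by 0.97 ± 0.06 SE. The cohesin genes rad21b and stag1a fell by 0.46 and 0.41 and the APC/C activator gene fzr1b by 0.33 on the log2 scale. The adjusted p of each gene named above was below the threshold in edgeR, except where a gene is said not to be called. Of the other APC/C subunit genes in the list, anapc4, anapc5, anapc10, cdc16, cdc23 and cdc27 were called higher and anapc7 lower (log2 -0.19). The subunit genes anapc11, anapc13, anapc15, anapc16 and cdc26 were not called.

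**Figure D4:**
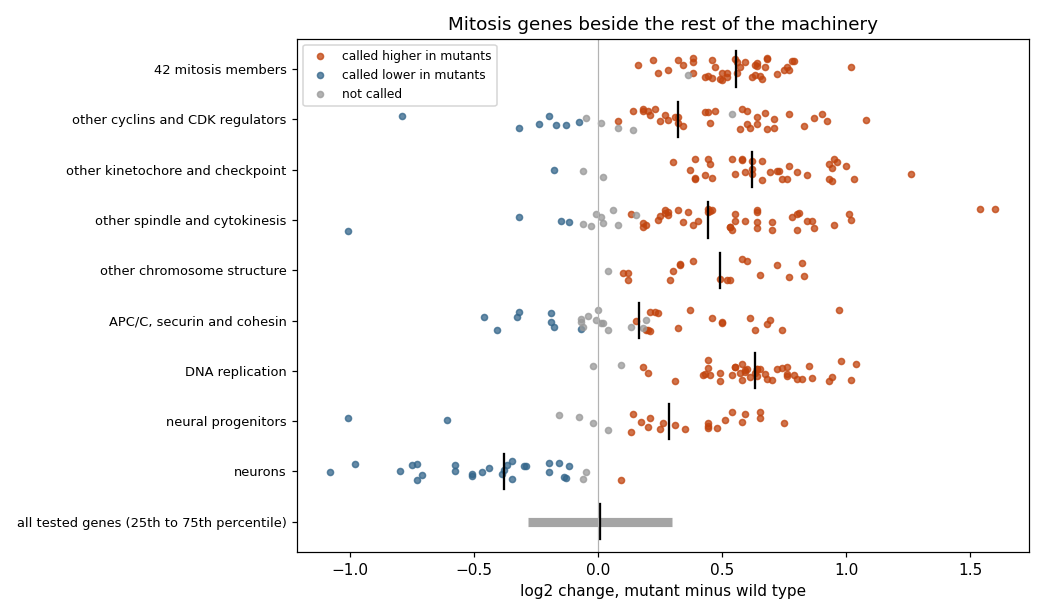
Each point is a gene and the horizontal axis its log2 change, mutant minus wild type, with the vertical bar at the list's median. The members sit to the right of 0 at a median of 0.56, the APC/C, securin and cohesin list at 0.17, and the bottom row spans the 25th to the 75th percentile of all tested genes, from -0.28 to 0.30.

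Genes of other phases and tissues moved in the same libraries, and their part in the members' rise was not tested. Of 45 DNA replication genes 43 rose and 0 fell (median log2 0.63), summing to 1830 to 1880 CPM in mutants and 1220 to 1240 CPM in siblings. Neural progenitor genes rose in 20 of 26 cases and fell in 2 (1230 to 1260 CPM in mutants, 1060 to 1070 CPM in siblings), and neuron genes fell in 26 of 29 and rose in 1 (3790 to 3960 CPM in mutants, 5030 to 5190 CPM in siblings). Lens, exocrine pancreas and enterocyte genes fell in 21 of 22, 18 of 20 and 26 of 29 cases. Together those 3 lists took 0.888% to 0.959% of counts in mutants and 3.03% to 3.21% in siblings. Of all tested genes 34.5% were called higher and 34.1% lower. Beside that, skeletal muscle genes rose in 11 of 23 cases (47.8%) and fell in 4 (17.4%), and blood genes rose in 3 of 20 (15%) and fell in 12 (60%). Germ line genes rose in 5 of 14 cases (35.7%), a share near that of all tested genes, and fell in 1 (7.14%). No matched gene of these lists was at 0 in all libraries.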

How the data were processed

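The deposited values are raw counts, with each library's read pairs summed by gene in its own table. Per the file headers they were made with featureCounts 1.6.3 in a paired, strand-specific setting over exons of Ensembl GRCz11 gene models, annotation release 115. Trimmomatic 0.38 and STAR 2.7.11 are named in the submitters' processing notes. Members and gene lists were chosen with earlier results of these data known. Of the member symbols 40 matched exactly and 2 after the paralogue letter was dropped. For the other lists, 199 mitosis entries matched and 19 did not. The progenitor gene dld was left out, since its symbol also names another gene. Names that stand on several gene IDs were resolved by the chromosome RefSeq gives (assembly GRCz12tu, used for names only).

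All tested genes were fitted with edgeR 4.0.16 (R 4.3.3): filterByExpr, TMM factors, quasi-likelihood F-test, genotype only, two-sided, Benjamini-Hochberg adjustment with a threshold of 0.05, and glmTreat for 1.5-fold. CPM uses TMM-scaled library sizes, and the fitting step was tested on simulated data. Each SE was derived from the fit as the absolute log2 change divided by the square root of the F statistic. Intervals are the estimate and SE at 95% with the residual degrees of freedom. Floors of 3 counts cover counting error only. The text names every member, pdcd7 and, per mitosis list, up to 3 called genes a direction with the smallest p. Other genes named beside these were picked after their values were seen. Alternatives were other scalings, 2 filters, DESeq2 1.42.0, limma-voom (limma 3.58.1), a replicate block and leaving out each library. Replicates differed beyond counting noise (chi-square per degree of freedom 4.61 to 6.44 for pairs of libraries, over genes with 10 or more counts in the pair). Planned comparisons of promoter and protein sequences were not run, and sequences were not used here. Figures used matplotlib 3.10.9.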

Additional observations from a re-analysis of the deposited data

How the results depend on the processing

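The 41 calls among members held under each of the other scalings, filters and tools, and 40 or 41 held with a library left out, with 0 members called lower in any setting. The median log2 change of members was 0.63 with library size only and ran from 0.52 to 0.57 with a library left out. With library size only the class medians were 0.54 for cyclins and CDKs, 0.67 for kinetochore and checkpoint and 0.64 for chromosome structure. At that setting 15 members passed the 1.5-fold test, against 6 to 8 with a library left out. How many of all tested genes passed it at these settings was not counted. With upper quartile factors the kinetochore and chromosome medians were 0.64 and 0.61. With a library left out, the cyclin and CDK median ran from 0.38 to 0.52 and the kinetochore median from 0.57 to 0.62. Library size only moved the median over all tested genes to 0.08. Genes called over the whole table numbered 9986 higher and 6808 lower with library size only. The labels do not say whether the replicate numbers pair the libraries. Deviations of same-numbered libraries correlated at 0.021, -0.041 and -0.002, and 0 of 3 mutant libraries correlated best with their own number. With 3 libraries a group, low correlations cannot show whether clutches were shared. With the replicate block, 8220 genes were called higher and 8120 lower, against 8358 and 8265 without it, and 41 members were called higher. Depth limits the statement on birc5b.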

Other observations

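These genes were picked from the mitosis lists after their values were seen. Some duplicated cohesin genes went opposite ways and others did not. The gene rad21a was higher in mutants, at 253, 247 and 236 CPM against 207, 206 and 212 CPM in siblings, while rad21b was lower, at 32.1, 32.4 and 33.3 CPM in mutants and 45.6, 44.8 and 44.2 CPM in siblings. The same held for stag1b (log2 0.21 ± 0.04 SE) and stag1a (log2 -0.41 ± 0.03 SE). Of the other duplicates, wapla was called higher (log2 0.15) and waplb lower (log2 -0.07), stag2a was called lower (log2 -0.19) while stag2b was not called (0.999-fold), and nipblb was called higher (log2 0.32) while nipbla was not called (log2 -0.06). The rad21 and stag1 genes were all called in edgeR (adjusted p = 4.08e-05 for rad21a, 6.24e-08 for rad21b, 0.000214 for stag1b and 3e-07 for stag1a).

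The S-phase cyclin gene ccne1 stood at 7.07, 6.83 and 6.52 CPM in mutants and 3.65, 3.85 and 3.66 CPM in siblings (log2 0.87 ± 0.07 SE), against the log2 change of 0.22 in ccne2. The gene foxm1, a transcription factor of mitotic genes, gave 12.4, 12.5 and 12.2 CPM in mutants and 8.07, 8.32 and 8.14 CPM in siblings (log2 0.60 ± 0.05 SE). The G1 kinase genes cdk4 and cdk6 changed by log2 0.21 ± 0.04 SE and 0.18 ± 0.04 SE.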
